A study of Mus musculus with 12 samples.

Results

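The genes described here encode the proteasome: its constitutive subunits, its activators and inhibitor, and the factors that assemble it. They are the protein-coding genes of the deposited count table whose symbol starts with Psma, Psmb, Psmc, Psmd, Psme, Psmf or Psmg followed by a digit, without the immunosubunits Psmb8 and Psmb9. This gave 47 of the 17579 genes of the table. By role they were 8 α subunits and 8 β subunits of the core, 6 ATPases and 11 non-ATPase subunits of the regulatory particle, 6 activator or inhibitor genes and 7 assembly factors. The last gene, Psmc3ip, shares the start of its symbol but is a meiotic recombination factor and not a subunit. The name pattern also takes in Psmb10, a β subunit that is inserted under interferon, the interferon-inducible activator genes Psme1 and Psme2, and Psma8, an α subunit known from male germ cells, so not every member is constitutive. Psmb11 was not analysed here.

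Polyadenylated RNA was sequenced from 2 tissues, the retina and the striatum, of males on a C57Bl/6 background at 13 to 15 weeks of age, either R6/1 or wild-type (wt) littermates. The R6/1 line carries an exon 1 fragment of human HTT, driven by the human HTT promoter and with its CAG repeat expanded, and is 1 transgenic line. The 4 groups were R6/1 retina, wt retina, R6/1 striatum and wt striatum, with 3 libraries each, and neither genotype was treated. Each library was made from RNA pooled from 3 to 4 mice, and both tissues were taken from the same mice, so n is the number of pools and the p-values measure the spread between pools.

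The proteasome degrades proteins that have been tagged with ubiquitin. The core is a barrel of stacked rings: the outer α rings form the gate, and the inner β rings carry the proteolytic sites. The regulatory particle caps the barrel, where its non-ATPase subunits bind and remove ubiquitin chains and its ring of ATPases unfolds the substrate and feeds it into the core. Dedicated chaperones build the core and the base of the cap. In immune activation some β subunits are exchanged and other caps are made, which alters the peptides offered to MHC class I. Neurons depend on this system for clearing misfolded proteins, and the huntingtin fragment that aggregates in Huntington's disease carries ubiquitin.

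Total counts were 17024353 to 17926885 in R6/1 retinas, 14070445 to 18661772 in wt retinas, 15885261 to 22432431 in R6/1 striata and 17206379 to 20159277 in wt striata. Rod and cone markers summed to 19514 to 27449 counts scaled by library size (CPM) in R6/1 retinas and 64224 to 72486 CPM in wt retinas, and to at most 8.41 CPM in any striatal library. All 15 of these markers were called lower in R6/1 retinas, where 12.7% of all genes were. Fewer cells and less RNA per cell cannot be told apart in such bulk samples. There were 997 genes listed at 0 in all 6 retinal libraries and no other gene summed to fewer than 11 counts there (851 genes and 11 counts in the striatum), so that a listed 0 may stand for a low count and is not read as a measured absence. The oligodendrocyte markers Mog, Mobp, Olig1 and Olig2 were listed at 0 in this way in every retinal library. In the striatum the number of genes called between genotypes depended on the libraries used: leaving out wt replicate 1 left 0 higher and 1 lower, and leaving out wt replicate 2 gave 715 higher and 1201 lower, against 22 and 220 with all libraries.

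The sequences before the transcription start bear on whether these genes carry common letters, since many of them are thought to be co-regulated, in part by Nfe2l1 through antioxidant response elements. RefSeq windows of 250 bases before the start (build GRCm38.p6) were found for 39 of the 47 members, in 42 windows, and 8 members had none. CCGGAA, the core of an Ets-type motif, was present on either strand before 18 of the 39 members. By window this was 45.2% of 42, beside 12.03% of all 32851 RefSeq windows and 21.3% of the 10551 windows of protein-coding genes in the table that reached 10 CPM. TGACNNNGC, the core of the antioxidant response element, was present before 5 members (Psmb5, Psmb6, Psmc6, Psmd9 and Psmd12), which is 11.9% of their windows and 10.2% of all windows. GGGCGG was present in 52.4% of the member windows, beside 32.7% of all and 58.0% of those of genes at 10 CPM or more. CCAAT was in 31.0%, beside 33.8% of all. The windows of 5 members are shown because their genes differ most in the retina or carry the motifs named, with CCGGAA and TGACNNNGC, or their reverse complements, in capitals. They lie at chr8:105938393-105938642 (minus strand) for Psmb10, chr14:54617996-54618245 (minus) for Psmb5, chr14:45329574-45329823 (plus) for Psmc6, chr11:107479278-107479527 (plus) for Psmd12 and chr16:20651402-20651651 (plus) for Psmd2.
Psmb10: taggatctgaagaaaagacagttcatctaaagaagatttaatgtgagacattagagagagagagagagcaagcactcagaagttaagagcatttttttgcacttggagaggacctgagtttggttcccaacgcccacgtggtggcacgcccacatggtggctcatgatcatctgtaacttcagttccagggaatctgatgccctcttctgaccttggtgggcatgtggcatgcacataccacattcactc
Psmb5: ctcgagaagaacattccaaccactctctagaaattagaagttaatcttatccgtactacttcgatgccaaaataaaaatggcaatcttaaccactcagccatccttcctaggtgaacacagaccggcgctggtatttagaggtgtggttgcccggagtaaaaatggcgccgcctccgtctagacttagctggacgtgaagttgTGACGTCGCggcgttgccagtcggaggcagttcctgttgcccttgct
Psmc6: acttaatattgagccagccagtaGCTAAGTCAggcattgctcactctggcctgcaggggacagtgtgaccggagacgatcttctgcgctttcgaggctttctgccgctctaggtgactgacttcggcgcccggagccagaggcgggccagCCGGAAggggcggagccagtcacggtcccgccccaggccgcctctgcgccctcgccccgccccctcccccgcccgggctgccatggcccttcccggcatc
Psmd12: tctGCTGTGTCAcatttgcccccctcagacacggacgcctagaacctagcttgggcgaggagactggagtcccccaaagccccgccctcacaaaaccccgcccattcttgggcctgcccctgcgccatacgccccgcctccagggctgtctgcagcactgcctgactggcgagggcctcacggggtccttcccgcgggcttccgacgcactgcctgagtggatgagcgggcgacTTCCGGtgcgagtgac
Psmd2: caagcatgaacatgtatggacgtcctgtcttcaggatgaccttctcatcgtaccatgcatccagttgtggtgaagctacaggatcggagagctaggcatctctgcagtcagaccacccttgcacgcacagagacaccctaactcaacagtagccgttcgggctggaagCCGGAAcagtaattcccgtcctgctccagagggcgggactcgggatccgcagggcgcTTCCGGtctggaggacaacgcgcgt
The Psmb10 window held none of the 4 motifs, and neither did that of Psmg3. The windows of Psme1 and Psme2 held only GGGCGG. Psmb5 had TGACNNNGC starting 47 bases before its start. Psmc6 had it at 227 bases on the minus strand with CCGGAA at 100 bases, and Psmd12 had it at 247 bases with CCGGAA at 16 bases, both on the minus strand. Psmd2 had CCGGAA at 82 and 25 bases. A match of letters is a description of the window and not of binding.

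The proteasome genes were well expressed in both tissues and close to each other in sum. Summed over the 47 members, the level was 3057, 2736 and 2811 CPM in R6/1 retinas, 2723, 2838 and 2747 CPM in wt retinas, 2842, 2748 and 2722 CPM in R6/1 striata, and 2769, 2725 and 2610 CPM in wt striata. The genotypes overlapped in both tissues. Per transcript length (TPM, which sums to the same total in every library), the median member had 101 TPM in R6/1 retinas, 78.2 TPM in wt retinas, 89.0 TPM in R6/1 striata and 79.9 TPM in wt striata. The median member is a different gene in each group (Psmd6, Psmb5, Psme1 and Psme3), and TPM takes no TMM factors. These medians therefore give no fold change between genotypes. The median log2 fold change of the members was 0.12 in the retina and 0.03 in the striatum (edgeR).

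The ATPase genes led the order of levels per length. In wt retinas the highest were Psmc1 at 186 ± 6.86 TPM, Psmc5 at 178 ± 1.82 TPM and Psmc6 at 168 ± 9.30 TPM (SD, n = 3). In wt striata they were Psmc5 at 192 ± 5.44 TPM, Psmc1 at 191 ± 8.69 TPM and the α subunit gene Psma6 at 144 ± 8.89 TPM. In either tissue Psmc1 and Psmc5 differed by less than 2 SDs of Psmc1. Psmc6 was number 3 of 47 in wt retina and number 23 in wt striatum. At the other end, Psma8 was listed at 0 in all 6 retinal libraries and reached 0.172 to 0.715 CPM in the striatal ones. Psme2b, a near copy of Psme2 whose counts the authors' quantification may have split with it, reached at most 0.538 CPM in any library. Above those came Psmb10 at 5.34 ± 0.748 TPM in wt retinas and Psmc3ip at 4.60 ± 0.802 TPM in wt striata.

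In the retina a minority of the proteasome genes differed between genotypes, nearly all of them upwards and most by little. Of 46 members tested, 9 were called higher and 1 lower in R6/1 retinas with edgeR's quasi-likelihood test at a Benjamini-Hochberg adjusted p under 0.05. That is 19.6% higher and 2.17% lower, beside 9.58% and 12.7% of all 16582 genes tested. In either direction the share was 21.7%, near the background of 22.3%. The median log2 fold change of the members was 0.12, beside 0.01 over all genes, and 37 of 46 were above 0. With single libraries left out this median was 0.06 (without R6/1 replicate 1) to 0.15, in a single fit of all 12 libraries it was 0.09, and with library totals in place of TMM it was 0.23. Their median absolute log2 fold change was 0.14, beside 0.20 over all genes. All 3 libraries of one genotype lay above all 3 of the other in 11 members for R6/1 and in 2 for wt, where 15.3% and 23.1% of all genes did.

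**Figure D1:**
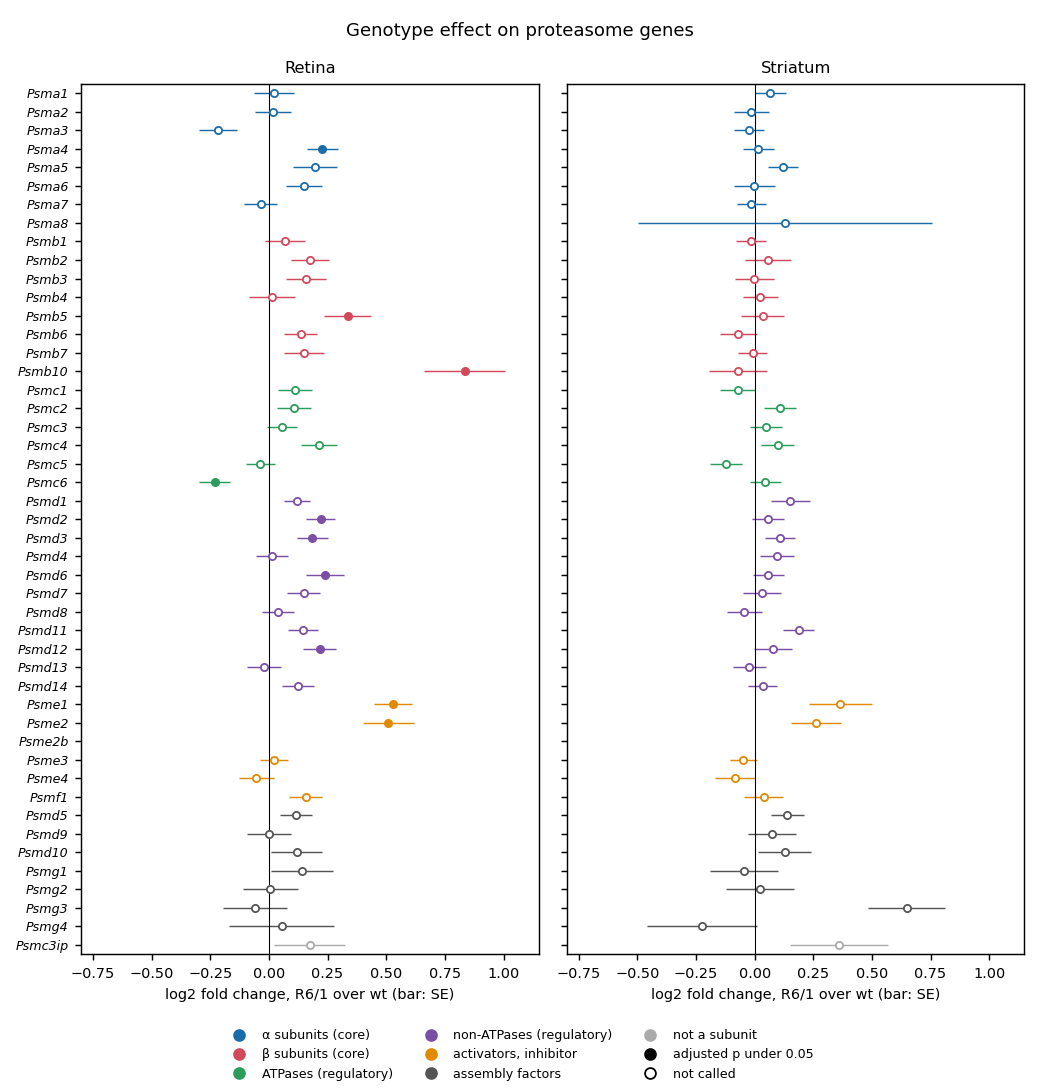
Log2 fold change of each proteasome gene, R6/1 over wt, in the retina (left) and the striatum (right), with bars of 1 SE and filled points where the adjusted p was under 0.05. Retinal points lie mostly right of 0, with Psmb10 at 0.83, Psme1 at 0.53 and Psme2 at 0.51 farthest out, and no striatal point is filled; Psme2b is left out of both panels and Psma8 was not tested in the retina.

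The 3 members with the largest retinal differences were the interferon-inducible ones. Psmb10 (ENSMUSG00000031897, chr8:105935735-105938444 on the minus strand of GRCm38), which replaces Psmb7 in immunoproteasomes, had 5.46, 5.40 and 5.59 CPM in R6/1 retinas and 3.08, 2.71 and 3.59 CPM in wt retinas. All R6/1 libraries were above all wt ones, and edgeR gave a log2 fold change of 0.83 with an SE of 0.17 and an adjusted p of 0.00209. The antisense gene Gm16156 covers 2710 bases of Psmb10 and has no entry in the deposited counts. Whether the quantification used the strand of the reads is not stated. Psme1 (chr14:55578123-55581529, plus strand) encodes one of the paired subunits of the interferon-inducible cap. It had 29.03, 28.8 and 29.6 CPM in R6/1 retinas and 19.9, 20.4 and 21.4 CPM in wt retinas, again without overlap (log2 fold change 0.53, SE 0.08, adjusted p = 0.000161, edgeR). Its partner Psme2 lies next to it at chr14:55587441-55591113 on the minus strand. Psme2 had 19.6, 16.4 and 16.8 CPM in R6/1 retinas and 12.05, 13.9 and 12.01 CPM in wt retinas (log2 fold change 0.51, SE 0.11, adjusted p = 0.0028, edgeR). These 3 genes stayed called under every one of 17 other ways of processing, with a highest adjusted p of 0.0131, 0.00703 and 0.0196. Psme2b had 0.109, 0.000 and 0.0554 CPM in R6/1 retinas and 0.536, 0.0732 and 0.000 CPM in wt retinas, too few counts to compare.

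Interferon response genes moved with these 3. Of 16 in the list, 14 were called higher in R6/1 retinas and 0 lower, where 9.58% and 12.7% of all genes were. The summed level of the 16 was 322 to 387 CPM in R6/1 retinas, against 186 to 194 CPM in wt retinas. Of 12 microglial markers 8 were called higher, where 9.58% of all genes were. The 12 summed to 60.4 to 71.9 CPM in R6/1 retinas and 37.4 to 39.1 CPM in wt retinas, and none of these markers was at 0. The part of either in the result was not tested. The immunosubunit Psmb8, which exchanges with Psmb5, had 4.26, 4.42 and 3.6 CPM in R6/1 retinas and 1.20, 2.05 and 1.96 CPM in wt retinas (log2 fold change 1.26, SE 0.23, adjusted p = 0.000702, edgeR). Psmb9, which exchanges with Psmb6, did not pass the test at 0.58 (SE 0.44, adjusted p = 0.383, edgeR).

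**Figure D2:**
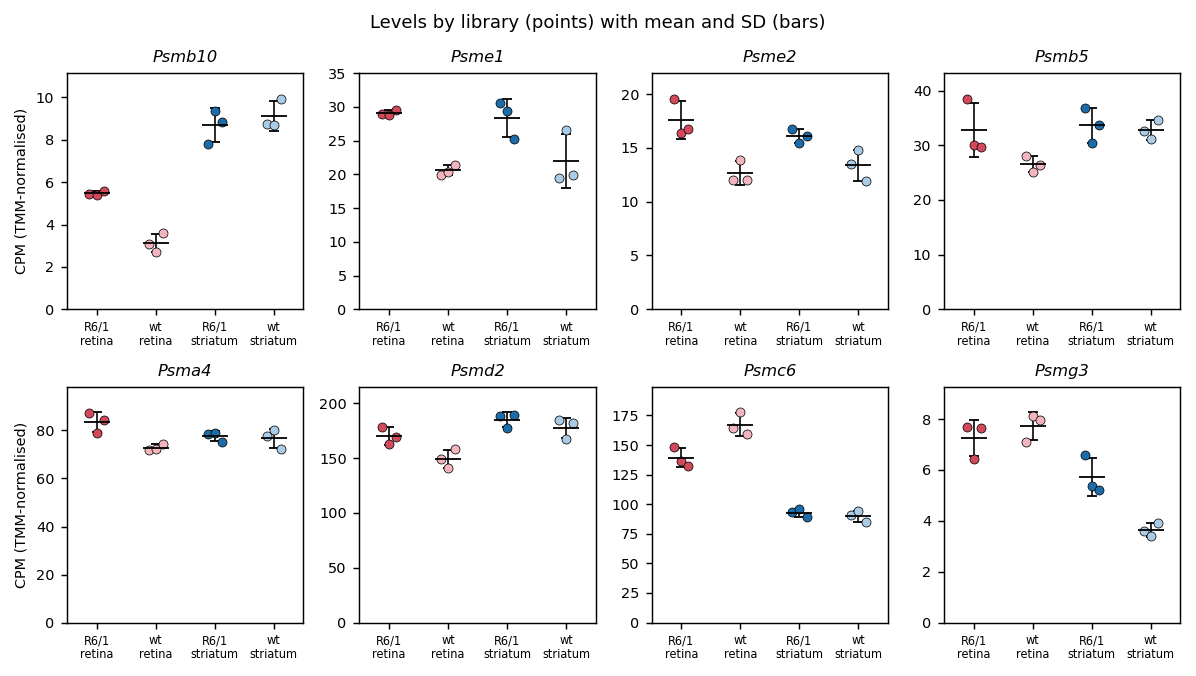
TMM-normalised CPM of 8 proteasome genes in each library (points) with the mean and SD (bars) for R6/1 retina, wt retina, R6/1 striatum and wt striatum, each on an axis from 0. In the retina all R6/1 libraries lie above all wt libraries for Psmb10, Psme1, Psme2, Psmb5, Psma4 and Psmd2, and below them for Psmc6. In the striatum all R6/1 libraries lie above all wt libraries for Psmg3 and Psme2.

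Among the constitutive β subunits, which form the inner rings, Psmb5 was the single one called, where 22.3% of all genes were. It carries the chymotrypsin-like site and had 38.6, 30.1 and 29.7 CPM in R6/1 retinas and 28.05, 25.2 and 26.5 CPM in wt retinas (log2 fold change 0.33, SE 0.10, adjusted p = 0.0257, edgeR). R6/1 replicate 1 stood well above the other 5 libraries. Psmb6, with the caspase-like site, had 67.6, 61.1 and 61.3 CPM in R6/1 retinas and 56.5, 61.4 and 58.99 CPM in wt retinas and did not pass the test (adjusted p = 0.182, edgeR). Psmb7, with the trypsin-like site, had 83.9, 67.6 and 66.5 CPM in R6/1 retinas and 66.4, 69.5 and 64.8 CPM in wt retinas (adjusted p = 0.234, edgeR). For both the genotypes overlapped. The structural subunits Psmb1 to Psmb4 had log2 fold changes of 0.01 to 0.18, none of them called.

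Of the 7 α subunits tested, which gate the core, Psma4 alone was called, where 22.3% of all genes were. It had 87.4, 79.1 and 84.2 CPM in R6/1 retinas and 71.7, 72.4 and 74.5 CPM in wt retinas, with every R6/1 library above every wt one (log2 fold change 0.23, SE 0.06, adjusted p = 0.0166, edgeR). Psma3, which sits in the same ring, lay on the other side of 0 with 88.2, 74.1 and 76.8 CPM in R6/1 retinas and 88.5, 104 and 91.9 CPM in wt retinas. It missed the threshold (log2 fold change -0.22, SE 0.08, adjusted p = 0.0614, edgeR).

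The regulatory particle had 4 non-ATPase genes called higher of 11, and 1 ATPase gene called lower of 6. Over all genes tested in the retina, 9.58% were called higher and 12.7% lower. Psmd2, a large scaffold subunit that docks ubiquitin-like proteins, had 178, 162 and 169 CPM in R6/1 retinas and 149, 141 and 158 CPM in wt retinas (log2 fold change 0.22, SE 0.06, adjusted p = 0.0179, edgeR). Its genotypes did not overlap. The lid subunits Psmd6, Psmd12 and Psmd3 had log2 fold changes of 0.24, 0.22 and 0.19 with adjusted p of 0.0459, 0.034 and 0.0474 in the same edgeR fit. Psmd6 was called although its genotypes overlapped, at 64.2, 53.7 and 59.4 CPM in R6/1 retinas and 49.9, 56.3 and 47.5 CPM in wt retinas. The deubiquitinase Psmd14, which removes the chain before degradation, had 72.4, 63.7 and 68.8 CPM in R6/1 retinas and 63.7, 65.6 and 62.9 CPM in wt retinas (adjusted p = 0.211, edgeR). The ubiquitin receptor Psmd4 had 78.3, 68.7 and 80.2 CPM in R6/1 retinas and 76.9, 77.2 and 76.2 CPM in wt retinas, overlapping (adjusted p = 0.933, edgeR).

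Psmc6, a subunit of the ATPase ring, went the other way from the rest of the called genes. It had 149, 137 and 133 CPM in R6/1 retinas and 164, 178 and 159 CPM in wt retinas, with every R6/1 library below every wt one (log2 fold change -0.23, SE 0.07, adjusted p = 0.0167, edgeR). The other ATPase genes were not called. The closest was Psmc4, with 71.3, 65.7 and 69.8 CPM in R6/1 retinas and 55.7, 57.9 and 68.2 CPM in wt retinas (log2 fold change 0.21, adjusted p = 0.0577, edgeR). Psmc1, Psmc2, Psmc3 and Psmc5 had log2 fold changes of -0.04 to 0.11.

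The remaining activators, the inhibitor and the assembly factors were not called in the retina. Psme3, which caps nuclear core particles, had 88.8, 93.8 and 89.2 CPM in R6/1 retinas and 92.8, 89.1 and 91.7 CPM in wt retinas. Psme4, an activator linked to histone degradation, had 93.7, 103 and 84.1 CPM in R6/1 retinas and 104, 95.6 and 98.7 CPM in wt retinas. For both, the adjusted p was at least 0.657 (edgeR). Psmf1, an inhibitor of the core in vitro, had 32.96, 35.4 and 36.9 CPM in R6/1 retinas and 32.4, 32.3 and 31.9 CPM in wt retinas, without overlap but with an adjusted p of 0.121 (edgeR). The base chaperones Psmd5, Psmd9 and Psmd10 and the core chaperones Psmg1 to Psmg4 had log2 fold changes of -0.06 to 0.14.

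The smaller retinal calls were sensitive to the tool and to single libraries, unlike those of Psmb10, Psme1 and Psme2. DESeq2, which the study's methods used, and limma-voom each called 7 members higher in place of 9. Psmd6 was lost with DESeq2 and limma-voom (adjusted p = 0.0559 and 0.0671), with a non-robust spread (0.0742) and with the replicate block (0.0602). Psmd3 was lost with DESeq2 (0.0925), filterByExpr (0.0505) and the replicate block (0.0533), and Psmb5 with limma-voom (0.0539). R6/1 replicate 1 was above its group's mean in 39 of the 45 members with counts in every library, where 48.7% of all genes were, and R6/1 replicate 2 in 5 of 45. Without R6/1 replicate 1 there were 4 members called higher (Psma4 was the one beside the 3 above) and 2 lower, without wt replicate 1 there were 4 higher, and without wt replicate 2 there were 5 higher and 0 lower. Without R6/1 replicate 1 the adjusted p was 0.126 for Psmb5, 0.0565 for Psmd2, 0.103 for Psmd12 and 0.166 for Psmd6. Without wt replicate 1 it was 0.0714 for Psma4, 0.0710 for Psmd2, 0.166 for Psmd12 and 0.147 for Psmd6. Without wt replicate 2 it was 0.0991 for Psmb5, 0.0833 for Psmd2 and 0.0505 for Psmd12. Psmb5 and Psmd6 were also lost without wt replicate 3 (0.0779 and 0.168), and Psmd6 without R6/1 replicate 3 (0.0973). Psmc6 was lost without wt replicate 2 (0.0820) or R6/1 replicate 3 (0.0876), and Psmd3 was lost without any one of the 6 libraries (0.0603 to 0.125, edgeR). Scaled by library totals in place of TMM, which moved the median of all genes to 0.13, 25 members were called higher and 0 lower, and Psmc6 had -0.12 (adjusted p = 0.181).

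In the striatum, of 47 members tested, 0 were called with edgeR, and 0 with DESeq2 and limma-voom, while 4 had an unadjusted p under 0.05 (Psmg3, Psmd11, Psme1 and Psme2). Over all 16728 genes edgeR called 0.132% higher and 1.32% lower, 1.45% in all. With the replicate number as a block, 1 member was called, and 2.83% of all genes were higher and 7.11% lower. The labels do not state that equal numbers pair R6/1 with wt libraries. DESeq2 gave 1.06% and 4.84% of all genes. The median log2 fold change of the members was 0.03, beside 0.01 over all genes, and 0.01 to 0.06 with single libraries left out. The libraries did not overlap in 7 members for higher and 1 for lower, where 12.8% and 12.7% of all genes did.

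Psmg3, a chaperone in the early assembly of the α ring, had the smallest p. It had 6.57, 5.38 and 5.22 CPM in R6/1 striata and 3.59, 3.41 and 3.93 CPM in wt striata, with all R6/1 libraries above all wt ones (log2 fold change 0.65, SE 0.16, adjusted p = 0.0881, edgeR). It was the member called with the replicate block, at 0.65 with an adjusted p of 0.0362 (edgeR). In the annotation Psmg3 (chr5:139823592-139826885, minus strand) overlaps the same-strand gene Gm26938 over 2816 bases. Gm26938 has no entry in the deposited counts, so whether the quantification divided reads between the pair cannot be told. In the retina Psmg3 had 7.69, 6.43 and 7.64 CPM in R6/1 libraries and 7.10, 8.12 and 7.97 CPM in wt libraries, which overlapped.

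Psme1 had 30.6, 29.4 and 25.2 CPM in R6/1 striata and 19.5, 26.6 and 19.9 CPM in wt striata (log2 fold change 0.36, SE 0.13, adjusted p = 0.184, edgeR). The genotypes overlapped through wt replicate 2. Without that library the log2 fold change was 0.53 and the adjusted p was 0.0148 (edgeR). In that setting 4.32% of all genes were called higher and 7.25% lower, beside 0.132% and 1.32% with all libraries. With any other striatal library left out, 0 members were called. Wt replicate 2 had the highest sum of the 16 interferon response genes among wt striata, 216 CPM against 155 and 168 CPM, while R6/1 striata had 223 to 258 CPM. Its part in the result was not tested. Psme2 had 16.7, 15.4 and 16.1 CPM in R6/1 striata and 13.5, 14.8 and 11.9 CPM in wt striata, without overlap (log2 fold change 0.26, SE 0.11, adjusted p = 0.224, edgeR). Psmb10 had 7.81, 9.38 and 8.85 CPM in R6/1 striata and 8.73, 8.70 and 9.95 CPM in wt striata, overlapping. Psmd11, a lid subunit, had 76.9, 68.8 and 71.7 CPM in R6/1 striata and 63.4, 63.8 and 63.4 CPM in wt striata (log2 fold change 0.19, adjusted p = 0.174, edgeR).

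The core and ATPase genes had small differences between striata of the 2 genotypes. The constitutive β subunits Psmb1 to Psmb7 had log2 fold changes of -0.07 to 0.06, with SEs of 0.06 to 0.10. Psmb5 had 36.9, 30.4 and 33.7 CPM in R6/1 striata and 32.6, 31.1 and 34.7 CPM in wt striata. Psmc6 had 93.7, 95.6 and 89.1 CPM in R6/1 striata and 90.5, 94.04 and 85.04 CPM in wt striata. Of 12 microglial markers 0 were called in the striatum, where 1.45% of all genes were. The 10 markers of medium spiny neurons, the principal striatal cells, summed to 1111 to 2135 CPM in R6/1 striata and 3784 to 5246 CPM in wt striata, without overlap. All 10 had log2 fold changes below 0, with a median of -1.33, of which Penk alone passed the test (-1.97, adjusted p = 0.0165, edgeR). Their part in the members' values was not tested.

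Whether the genotype effect differed between the tissues was tested as the effect in the retina minus that in the striatum. Of 46 members 1 was called higher and 1 lower (2.17% each, beside 3.34% and 4.79% of 15731 genes, or 8.13% in either direction). Psmb10 had a difference of 0.87 on the log2 scale (SE 0.20, adjusted p = 0.0137, edgeR), with effects of 0.83 in the retina and -0.07 in the striatum. Psmg3 had a difference of -0.74 (SE 0.21, adjusted p = 0.0392, edgeR), with effects of -0.06 in the retina and 0.65 in the striatum. The call of Psmg3 was lost with genotype and replicate number as a block (adjusted p = 0.0589) and without 9 of the 12 libraries taken singly (0.0518 to 0.0936, edgeR). Psmc6 came next with -0.31 (SE 0.09, adjusted p = 0.058, edgeR). It was called with the same block (adjusted p = 0.0497), and without R6/1 retina replicate 1 (0.0385) or wt striatum replicate 2 (0.0282). For Psme1 and Psme2, called in the retina alone, the difference did not pass the test, at 0.13 (SE 0.16) and 0.22 (SE 0.15), with adjusted p of 0.66 and 0.429 (edgeR). Psmb5 had 0.27 (SE 0.15, adjusted p = 0.298, edgeR).

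**Figure D3:**
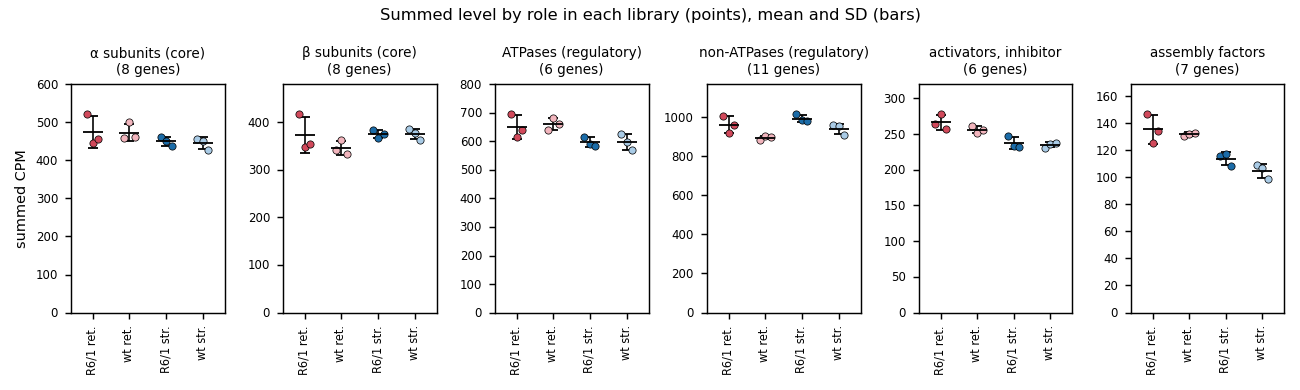
Summed TMM-normalised CPM of the genes of each role in each library (points), with the mean and SD (bars), for R6/1 retina, wt retina, R6/1 striatum and wt striatum. R6/1 retina replicate 1 is the highest of the retinal libraries for α subunits, β subunits, ATPases, non-ATPases and assembly factors, and the non-ATPases are the one role in which R6/1 libraries, at 919 to 1006 CPM, all lie above wt libraries, at 886 to 902 CPM, in the retina.

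Summed by role, the genotypes separated in the retina for the non-ATPase genes and overlapped for the other roles. The 11 non-ATPase genes summed to 1006, 919 and 963 CPM in R6/1 retinas and 886, 902 and 897 CPM in wt retinas, without overlap. They summed to 1016, 984 and 981 CPM in R6/1 striata and 958, 953 and 910 CPM in wt striata, also without overlap. The α subunits summed to 522, 445 and 456 CPM in R6/1 retinas and 459, 501 and 461 CPM in wt retinas, and overlapped. The ATPases summed to 696, 615 and 641 CPM in R6/1 retinas and 639, 684 and 662 CPM in wt retinas, and overlapped as well. These sums are descriptions and were not tested.

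Setting wt retina against wt striatum asks how the baseline transcript levels of the proteasome genes differ between the tissues. The composition of assembled proteasomes was not measured. Of 47 members 15 were called higher and 12 lower in the retina, 31.9% and 25.5%, beside 37.8% and 38.5% of all 16864 genes. In either direction this was 57.4%, beside 76.3% of all genes. Between R6/1 libraries of the 2 tissues 12 members were called higher and 10 lower in the retina, where 36.3% and 36.9% of all genes were. Of these 12 and 10 members, 10 and 7 were shared with the wt comparison. The libraries of the 2 tissues did not overlap in 15 members for higher and 13 for lower, where 39.4% and 39.7% of all genes did. Of the 47 members 25, most of them not called, had an absolute log2 difference under 0.25. The median absolute log2 difference of the members was 0.21, beside 0.87 over all genes.

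**Figure D4:**
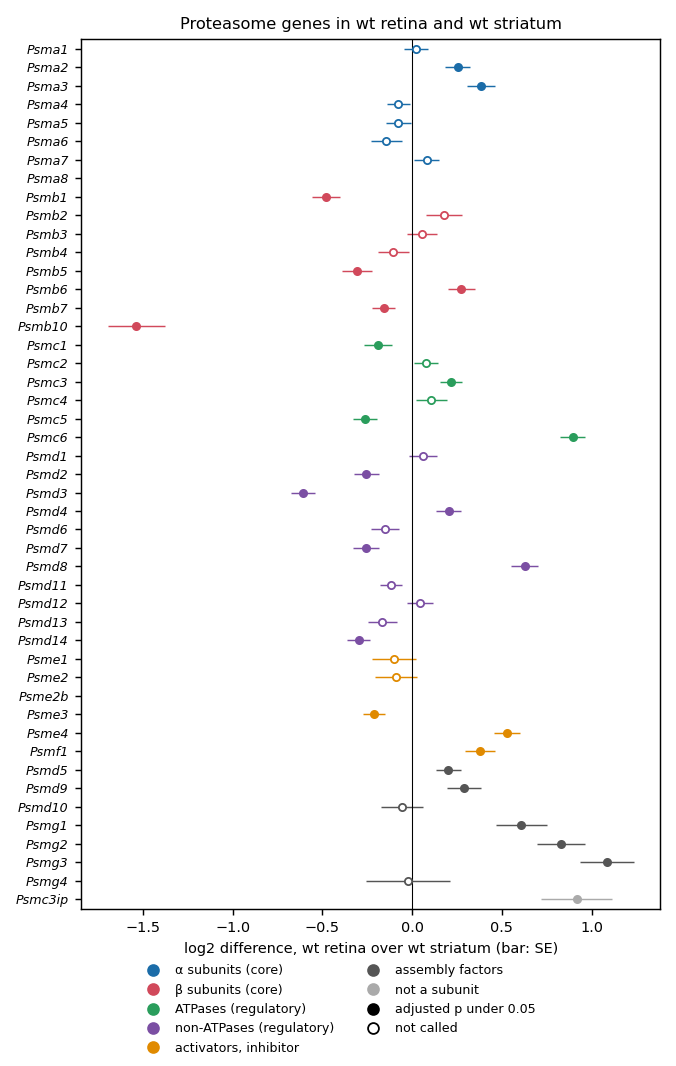
Log2 difference of each proteasome gene, wt retina over wt striatum, with bars of 1 SE and filled points where the adjusted p was under 0.05; Psma8 and Psme2b are left out. Psmg3, Psmc3ip, Psmc6 and Psmg2 lie farthest right, between 0.83 and 1.08, and Psmb10 farthest left at -1.54.

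Of the 7 assembly factors, which help the subunits into place, 5 were called higher in wt retina and 0 lower, where 37.8% and 38.5% of all genes were. Psmg3 had 7.10, 8.12 and 7.97 CPM in wt retinas and 3.59, 3.41 and 3.93 CPM in wt striata (log2 difference 1.08, SE 0.15, adjusted p = 4.62e-05, edgeR). Between R6/1 libraries of the 2 tissues the difference of Psmg3 was 0.35 and missed the threshold (adjusted p = 0.0591). Psmg2, which forms a dimer with Psmg1, had 19.9, 18.4 and 18.7 CPM in wt retinas and 12.9, 8.91 and 10.3 CPM in wt striata (log2 difference 0.83, SE 0.13, adjusted p = 0.000134, edgeR). Psmg1 had 10.9, 8.85 and 8.59 CPM in wt retinas and 6.22, 6.005 and 6.32 CPM in wt striata, without overlap (log2 difference 0.61). Psmd5 and Psmd9 were called at 0.20 and 0.29. Between R6/1 libraries of the 2 tissues they were not called (adjusted p = 0.0797 and 0.114, edgeR). Both calls were lost without wt striatum replicate 3 (0.0868 and 0.0625) or wt retina replicate 3 (0.0575 and 0.0888), and that of Psmd5 also without wt retina replicate 2 (0.0636, edgeR). Psmg4, the partner of Psmg3, had 2.61, 2.19 and 2.08 CPM in wt retinas and 2.57, 2.49 and 1.90 CPM in wt striata, which overlapped, and Psmd10 did not pass the test either.

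Within the ATPase ring, whose subunits are present in equal number in the assembled particle, the transcripts did not move together. Psmc6 had 164, 178 and 159 CPM in wt retinas and 90.5, 94.04 and 85.04 CPM in wt striata (log2 difference 0.89, SE 0.07, adjusted p = 3.32e-07, edgeR), the smallest p of all members. Psmc3 was higher by 0.22, while Psmc5 was lower in the retina at -0.26 and Psmc1 at -0.19. The call of Psmc1 was lost with the replicate block (0.0556) and without wt retina replicate 1 (0.163), wt retina replicate 3 (0.0736) or wt striatum replicate 1 (0.152, edgeR).

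The non-ATPase genes were split in the same way, with 2 called higher and 4 lower of 11, where 37.8% and 38.5% of all genes were. Psmd8, a lid subunit, had 88.6, 96.4 and 87.6 CPM in wt retinas and 63.8, 55.6 and 56.7 CPM in wt striata (log2 difference 0.63, SE 0.08, adjusted p = 1.31e-05, edgeR). Psmd3, of the same lid, was lower with 50.3, 47.5 and 48.9 CPM in wt retinas and 70.2, 77.9 and 74.97 CPM in wt striata (log2 difference -0.61, SE 0.07, adjusted p = 7.8e-06, edgeR). Psmd14, Psmd7 and Psmd2 were lower at -0.30, -0.26 and -0.25. Psmd4 was higher at 0.20, a call lost without wt retina replicate 1 (0.0527) or wt striatum replicate 3 (0.0713, edgeR).

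In the core, Psmb10 had the largest difference with counts in both tissues. It had 3.08, 2.71 and 3.59 CPM in wt retinas and 8.73, 8.70 and 9.95 CPM in wt striata (log2 difference -1.54, SE 0.16, adjusted p = 3.74e-06, edgeR). All 12 microglial markers were also called lower in wt retina, where 38.5% of all genes were. They summed to 37.4 to 39.1 CPM in wt retinas and 411 to 439 CPM in wt striata, and their part in the result was not tested. Psmb1 had 59.1, 61.8 and 52.4 CPM in wt retinas and 83.4, 81.9 and 75.8 CPM in wt striata (log2 difference -0.48, SE 0.08, adjusted p = 0.000153, edgeR). Psmb5 and Psmb7 were lower at -0.31 and -0.16, and Psmb6 was higher at 0.27. The call of Psmb7 was lost with the replicate block (0.0657) and without wt retina replicate 1 (0.111), wt retina replicate 3 (0.130), wt striatum replicate 1 (0.101) or wt striatum replicate 3 (0.0632, edgeR). Between R6/1 libraries of the 2 tissues Psmb5 differed by -0.03 (adjusted p = 0.85, edgeR). Psma3 and Psma2 were higher in wt retina at 0.38 and 0.25, and Psma2 overlaps the same-strand gene AW209491 over 8943 bases. Psma8 was listed at 0 in all wt retinas and had 0.239, 0.509 and 0.307 CPM in wt striata, 19 counts in all. It is 1 of the 12 members called lower, but the call rests on listed zeros that may stand for low counts, and no difference is read from it.

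Of the caps, Psme4 was the one that leaned most to the retina, with 104, 95.6 and 98.7 CPM in wt retinas and 69.2, 64.1 and 73.4 CPM in wt striata (log2 difference 0.53, SE 0.07, adjusted p = 3.64e-05, edgeR). Psmf1 was higher at 0.38 and Psme3 lower at -0.21. Psme1 and Psme2 did not pass the test, at -0.10 and -0.09. Psmc3ip, the member that is no subunit, had 6.43, 5.41 and 4.995 CPM in wt retinas and 2.99, 3.46 and 2.39 CPM in wt striata (log2 difference 0.92, adjusted p = 0.00124, edgeR).

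Of 16 genes that work with the proteasome but fall outside the name rule, 2 were called higher in R6/1 retinas and 0 lower, where 9.58% and 12.7% of all genes were. They were Ube3c, a ligase that extends chains on stalled substrates (0.29, adjusted p = 0.00893), and Zfand2a, an arsenite-inducible proteasome-associated protein (0.25, adjusted p = 0.0287, edgeR). The maturation factor Pomp had 61.4, 52.2 and 56.5 CPM in R6/1 retinas and 49.00, 54.2 and 45.9 CPM in wt retinas and missed the threshold (adjusted p = 0.0556, edgeR). The small lid subunit Sem1 and the ubiquitin receptor Adrm1 had 0.05 and 0.01. In the striatum 0 of the 16 were called, where 1.45% of all genes were. Between wt tissues 3 were higher and 11 lower in the retina, where 37.8% and 38.5% of all genes were.

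Of 10 genes that regulate proteasome transcription, 1 was called in R6/1 retinas, where 22.3% of all genes were. It was Ddi2, the protease that activates Nfe2l1, at 0.31 (SE 0.06, adjusted p = 0.000633, edgeR). Nfe2l1 itself had 158, 179 and 164 CPM in R6/1 retinas and 175, 174 and 171 CPM in wt retinas, with a log2 fold change of -0.02 (adjusted p = 0.827). In the striatum it had 275, 264 and 274 CPM in R6/1 libraries and 328, 299.6 and 336 CPM in wt libraries, without overlap and without passing the test (-0.25, adjusted p = 0.113, edgeR). Its activity as a protein was not measured.

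Among 19 ubiquitin-activating and conjugating enzymes, 2 were called higher and 1 lower in R6/1 retinas, where 9.58% and 12.7% of all genes were. In R6/1 striata 0 were called, where 1.45% of all genes were. In the retina the conjugating enzymes Ube2g1 and Ube2s were higher at 0.27 and 0.26, and Cdc34 was lower at -0.23. For Ube2g1, which had -0.31 in the striatum, the difference between tissues was 0.54 (adjusted p = 0.0144, edgeR). Of other cell type markers in the retina, 3 of 8 for Müller glia and astrocytes were called higher and 1 lower. For endothelial cells it was 1 of 7 each way. Medium spiny neurons are striatal cells, so the genes listed for them mark no such cell in the retina, where 5 of 9 tested were lower. For oligodendrocytes 1 of 4 tested was higher. Of all genes tested in the retina, 9.58% were called higher and 12.7% lower.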

How the data were processed

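The authors prepared stranded mRNA libraries (TruSeq), trimmed reads with Trimmomatic and quantified the reads against GRCm38/mm10 with Salmon, of versions that the sources used here do not state. They deposited estimated counts, rounded to whole numbers and not normalized, for 17579 genes. Of these, 17530 matched a symbol in GENCODE M21, 49 did not, and 0 columns were left without a sample. The sources used here do not state how transcripts were summed per gene.

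Groups were compared by edgeR's quasi-likelihood F-test (version 4.0.16, R 4.3.3), with TMM factors and a robust spread, on genes with at least 10 counts over the libraries of the fit. P-values were adjusted by Benjamini-Hochberg over all genes tested, with a threshold of 0.05, and SEs are the log2 fold change over the root of F. The study's methods used DESeq2, which is among the alternatives. Levels are CPM with TMM factors over all 12 libraries, and levels per length are counts over the median length of basic coding transcripts, scaled to the same sum in each library (TPM). With 3 pools a group, the median SE of a member's log2 fold change was 0.08 in the retina and 0.07 in the striatum.

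The alternatives tried were limma-voom (limma 3.58.1), DESeq2 1.42.0, other size factors, library totals, TMM without rod and cone genes, other count filters, a non-robust spread, a single fit over the 12 libraries, a block for the replicate number, R6/1 libraries for the tissue comparison, each library left out in turn (an arm of 2 libraries is then assumed to vary like the others), and an adjusted p under 0.01.

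No main test took equal replicate numbers as pairs, and the block for the replicate number was an alternative in every comparison. Deviations from the group means were correlated between libraries of equal number over 10445 genes. These correlations were set against 0.1 for all 3 numbers. Between R6/1 and wt striata they were 0.274, 0.329 and 0.257, and between R6/1 retinas and striata, from the same mice, 0.242, 0.119 and 0.179. Between wt retinas and striata (-0.0261, 0.0195 and 0.000763) they were not over 0.1. The labels do not state that equal numbers mark pairs. The highest correlation with another number was -0.0707, -0.0421 and 0.240 between R6/1 and wt striata, and up to 0.232 between R6/1 and wt retinas. Between R6/1 retinas and striata it was -0.0854, -0.0457 and 0.0201, each below the value for the equal number. A value over 0.1 does not by itself show that libraries were paired, since unequal numbers reached 0.232.

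Members and lists were chosen with earlier results of these data known. Values per library are given for the 5 called higher and 5 called lower with the smallest p in a comparison, or for the 2 with the smallest p where none was called, for the 3 highest and 3 lowest members per length in each wt tissue and for members with a role of their own; of each list up to 4 genes with the smallest p. The list of ligases and receptors for misfolded proteins is not reported here. Tables and figures were made in Python 3.11.15 with pandas 2.3.3, numpy 2.4.6, matplotlib 3.10.9 and scipy 1.17.1.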

Additional observations from a re-analysis of the deposited data

Results flagged for a closer look

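The genotype effect differed between the tissues for 2 members by the test of the difference itself, 4.35% of 46, beside 8.13% of all genes. For Psmb10 the effect in the retina minus that in the striatum was 0.87 on the log2 scale (adjusted p = 0.0137, edgeR), and all 3 R6/1 libraries were above all 3 wt ones in the retina, while the genotypes overlapped in the striatum. For Psmg3 it was -0.74 (adjusted p = 0.0392, edgeR), with all 3 R6/1 libraries above all 3 wt ones in the striatum and overlap in the retina. This call of Psmg3 was lost with genotype and replicate number as a block (0.0589) and without 9 of the 12 libraries taken singly.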

How the results depend on the processing

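In the retina 9 members were higher and 1 lower. Under filterByExpr 2 were lower, with library totals 25 were higher and 0 lower, in a single fit of all 12 libraries 4 were higher and 2 lower, and at an adjusted p under 0.01 there were 3 and 0. In the striatum 0 were higher, and 1 (Psmg3) was higher with library totals, in a single fit of all 12 libraries and with the replicate block. For the difference between tissues DESeq2 called 2 lower, and at an adjusted p under 0.01 there were 0 higher and 0 lower. Leaving out single libraries gave 4 to 11 higher and 0 to 2 lower in the retina, 0 to 1 higher and 0 lower in the striatum, 1 higher and 0 to 1 lower for the difference, and 12 to 16 higher and 10 to 13 lower between wt tissues. Over all genes the ranges were 961 to 1503 higher and 1556 to 2080 lower in the retina, 0 to 715 and 1 to 1201 in the striatum, 317 to 902 and 448 to 1097 for the difference, and 5842 to 6453 and 6121 to 6284 between wt tissues. Over all genes in the striatum, 22 higher and 220 lower became 473 and 1190 with the replicate block, 366 and 869 in a single fit and 178 and 810 with DESeq2. The replicate block gave 8 higher and 1 lower in the retina, where the correlations were not all over 0.1 (0.124, -0.0943 and 0.0511). It gave 1 and 1 for the difference and 15 and 10 between wt tissues. Of the values for single members, 3250 kept their call and direction, 90 lost a call, 43 gained one and 0 turned round. Where a count moved, the cause was not tested, apart from library totals, which shift the median of all genes to 0.13 in the retina. Low members such as Psma8, Psme2b and Psmg4 were limited by their counts.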

Other observations

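Each of the 5 members on chromosome 14 was called in R6/1 retinas: Psmb5, Psmd6, Psme1 and Psme2 higher, and Psmc6 lower. Of the 41 members tested on other chromosomes, 5 were called. Over all genes tested on chromosome 14, 22.8% were called, beside 22.3% in the whole table. The grouping by chromosome was chosen after the values were seen and was not tested. In the striatum 0 of these 5 members were called.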
